A study of Mus musculus with 10 samples.

Results

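Immediate-early and activity-regulated genes of the ventral hippocampus (vHpc) were examined in ovariectomized (OVX) female mice. The 44 members were taken by name from a list of such genes, chosen with earlier results of these data known. All 44 had a row among the 24421 genes of the deposited table, and all 44 passed the minimum mean of 0.5 CPM (a gene's reads scaled to a common library size), so that they were among the 15081 genes tested. By their textbook kinetics, 25 members were grouped as rapid, 18 as delayed, and Jund, which most cells express constantly, stood alone. The libraries came from C57BL/6 wild-type mice (WT) and from mice heterozygous for the BDNF Val66Met knock-in (Het-Met), an allele carried in every cell, ovariectomized at 70 to 80 days of age. After 2 weeks of recovery they drank 17β-estradiol (E2, 300 nM, 0.7 μg per day) in 0.1% ethanol, or 0.1% ethanol alone as vehicle, for 6 weeks. Each library held RNA pooled from 2 mice, so variation between single mice was averaged in part. WT mice gave 2 libraries under vehicle (replicates 1 and 3) and 2 under E2 (replicates 1 and 2), and Het-Met mice gave 3 under each. The p-values measure the spread between these pools, and comparisons that use the same group share its libraries. All mice lacked ovaries, and the vHpc was dissected whole, so fewer cells of a type and less RNA per cell cannot be told apart.

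Immediate-early genes are transcribed within minutes of synaptic activity, calcium entry or growth factor signalling, without the need for new protein, and most of their transcripts are short-lived. Kinases activate the factors CREB, SRF and MEF2 at their promoters, and rapid members such as Fos, Egr1 and Npas4 in turn encode transcription factors that act on later genes. Delayed members, such as Vgf, Nptx2 and Homer1, include secreted and synaptic proteins whose transcripts last longer. BDNF, the secreted factor changed by the Met allele, activates the receptor TrkB and through it the same kinases, and E2 can also reach them through receptors at the membrane.

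The stretches of promoter that carry cAMP response elements (CRE), the binding site of CREB, are shown for 7 of the members described one by one. These 7 hold its core in the 120 bases before the most upstream of their RefSeq promoter starts. For Fosb the stretch ends 7 bases before that start. The annotated genes Homer1 and Nr4a1 begin further upstream, so their stretches lie inside the gene. The CRE cores of Egr2 lie before its later starts and are not printed. Sequences are from RefSeq (GRCm38.p6, the build mm10 of the deposited data), 120 bases each, read 5′ to 3′ on the gene's strand, with every CRE core (TGACG, or CGTCA where it lies on the other strand) in capitals. The Fos stretch lies at chr12:85473770-85473889, plus strand, and that of Fosb at chr7:19310052-19310171, minus strand. The Junb stretch lies at chr8:84978749-84978868, minus strand, and that of Egr4 at chr6:85513590-85513709, minus strand. The Nr4a1 stretch lies at chr15:101266726-101266845, plus strand, and that of Nr4a2 at chr2:57124004-57124123, minus strand. The Homer1 stretch lies at chr13:93303637-93303756, plus strand, and it holds 3 such cores.
Fos: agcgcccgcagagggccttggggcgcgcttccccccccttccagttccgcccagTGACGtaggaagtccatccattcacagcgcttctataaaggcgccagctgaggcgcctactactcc
Fosb: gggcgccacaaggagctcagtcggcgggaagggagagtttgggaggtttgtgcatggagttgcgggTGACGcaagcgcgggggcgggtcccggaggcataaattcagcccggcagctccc
Junb: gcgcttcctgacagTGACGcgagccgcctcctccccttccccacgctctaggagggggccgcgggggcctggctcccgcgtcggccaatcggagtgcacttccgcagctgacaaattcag
Egr4: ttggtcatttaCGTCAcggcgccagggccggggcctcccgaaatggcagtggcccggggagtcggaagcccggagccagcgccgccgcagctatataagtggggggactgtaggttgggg
Nr4a1: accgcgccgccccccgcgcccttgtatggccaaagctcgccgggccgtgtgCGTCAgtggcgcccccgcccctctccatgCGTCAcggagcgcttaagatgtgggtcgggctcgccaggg
Nr4a2: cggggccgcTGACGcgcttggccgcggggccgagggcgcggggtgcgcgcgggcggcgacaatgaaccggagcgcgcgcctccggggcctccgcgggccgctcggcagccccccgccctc
Homer1: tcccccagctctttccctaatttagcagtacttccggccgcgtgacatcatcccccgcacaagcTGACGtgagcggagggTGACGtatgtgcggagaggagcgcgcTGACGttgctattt

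RefSeq promoters were matched for 33 of the 44 members. In the 250 bases before a start, the CRE core was found on either strand in 22 of the 33 (66.7%), against 19.8% of 27025 genes. The whole CRE (TGACGTCA, which contains the core on both strands) was found in Btg2, Dusp1, Maff and Plk2, or 12.1% of members against 1.77% of genes. The Egr factor motif (GCGNGGGCG) was held by 30.3% of members and 5.33% of genes, and the CArG box of SRF by Dusp5 and Egr2, 6.06% of members against 1.62% of genes. The AP-1 motif (TGANTCA) was found in Csrnp1 alone, 3.03% against 7.82% of genes. The full palindromic estrogen response element was found in 0 of 33 members and 0.0666% of genes. Member promoters had a median GC content of 64.0%, above the 52.4% of all starts, and the CRE core and the Egr motif both hold CG pairs. A match is a description of these letters and not a bound site.

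Each library held 19820184 to 23267410 counted reads, so 1 read was worth 0.0430 to 0.0505 CPM. Neuron markers, which are not particular to the vHpc, were present, 6 of 6 at 172.7 CPM or more in every library. Their mean level stayed within -0.068 and 0.053 log2 units of its average. Some differences between libraries touch the members. Markers of the choroid plexus, the tissue that secretes cerebrospinal fluid, were detected in every library, 10 of 10 above 0. Their summed level ran from 350.1 to 1588 CPM in vehicle-treated WT, from 2683 to 3579 CPM in E2-treated WT, from 2097 to 4062 CPM in vehicle-treated Het-Met and from 516 to 2234 CPM in E2-treated Het-Met libraries. In addition, replicate 2 of E2-treated WT and replicate 3 of E2-treated Het-Met stood at opposite ends for many members.

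Levels per kilobase of exon spanned a wide range. The highest means over 10 libraries were those of Jund (63.5 CPM per kb), a constant AP-1 subunit, and Vgf (61.7 CPM per kb), a secreted neuropeptide precursor. Jun (43.6), Plk2 (42.1) and Arc (32.8 CPM per kb) followed. Egr3 (25.9) and Egr1 (25.1 CPM per kb) differed little on this scale. Fos had 4.01 and Npas4 4.07 CPM per kb. Egr2 (0.546), Maff (0.319), Atf3 (0.282) and Inhba (0.190 CPM per kb) were the lowest, and for these few reads the log2(CPM + 0.5) scale used for all fold changes understates a change.

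The rapid members moved from library to library more than the delayed ones. The median SD within a group was 0.24 on the log2 scale for the 25 rapid members, 0.13 for the 18 delayed members and 0.12 for all genes tested. The classes were not matched for level, and the part of low read numbers in this spread was not tested. Over the 10 libraries the median rapid member spanned 1.78-fold from lowest to highest, against 1.41-fold for delayed members and 1.34-fold for all genes. Group membership held a median of 33.6% of the variance of a rapid member, 45.7% of that of a delayed member and 37.1% of that of any gene tested. With 4 group means fitted to 10 libraries, such a share is well above 0 without any group effect. These shares can thus be read only against that of all genes. The smallest shares among members were those of Csrnp1 (0.601%) and Klf10 (5.16%), and the largest those of Vgf (80.4%), Trib1 (77.9%) and Ier5 (77.4%). Fos had the widest range after Egr2, 3.70 to 17.8 CPM, and 33.6% of its variance lay between groups.

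**Figure D1:**
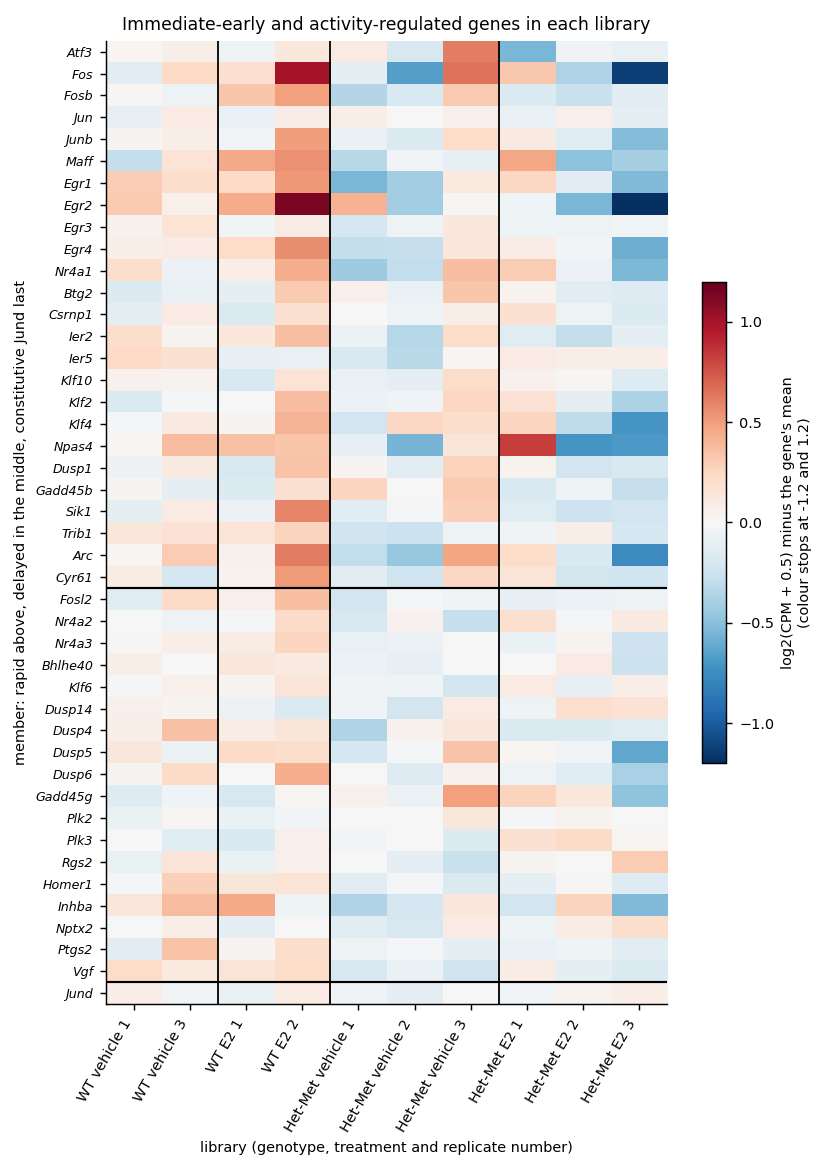
Level of each of the 44 members (rows, grouped as rapid, delayed and Jund) in each of the 10 libraries (columns, by genotype, treatment and replicate), as log2(CPM + 0.5) minus the gene's mean, with red above and blue below that mean. Replicate 2 of E2-treated WT is red for nearly the whole rapid block, replicate 3 of E2-treated Het-Met is blue for much of it, and the delayed block is paler.

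Single libraries carried much of this movement. Replicate 2 of the E2-treated WT mice held the highest value of 23 of 44 members, 16 of them rapid, and the lowest of 0, whereas it held the highest value of 7.01% of all genes tested. Replicate 3 of the E2-treated Het-Met mice held the lowest value of 18 of 44 members, 11 of them rapid, against 8.89% of all genes. Replicate 3 of the vehicle-treated Het-Met mice was above its own group's mean for 25 of 25 rapid members. The mean rapid level, centred on each gene's average, was 0.0016 and 0.062 in vehicle-treated WT, 0.037 and 0.38 in E2-treated WT, -0.14, -0.23 and 0.20 in vehicle-treated Het-Met and 0.064, -0.20 and -0.41 in E2-treated Het-Met libraries. The 2 Het-Met groups overlapped, and replicate 1 of E2-treated WT lay between the vehicle-treated WT libraries. The delayed level kept between -0.14 and 0.12, and its 3 highest values were from WT mice.

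**Figure D2:**
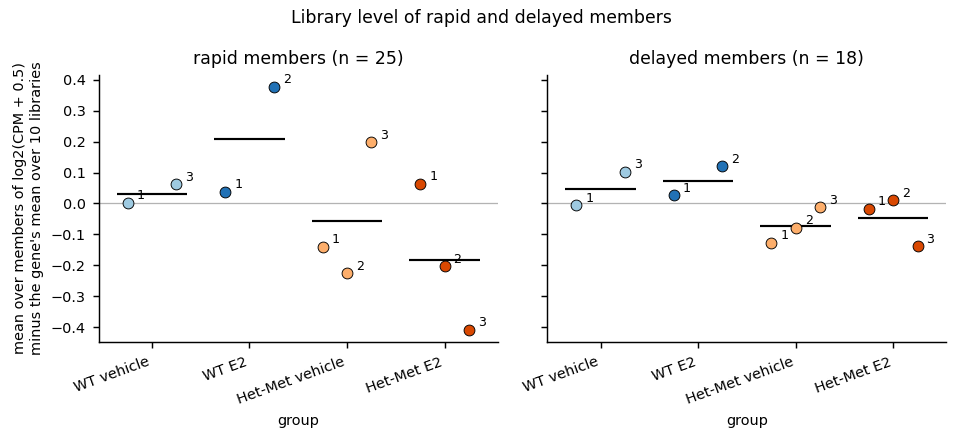
Mean level of the 25 rapid (left) and 18 delayed members (right) in each library, on the log2(CPM + 0.5) scale centred on each gene's mean over 10 libraries. Points are libraries labelled by replicate number and bars are group means. Rapid members range from -0.41 to 0.38 and delayed members from -0.14 to 0.12.

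The first comparison asked what E2 did in WT mice. No member passed the test (adjusted p under 0.05 and fold above 1.3 in limma, which 0.0133% of all genes passed), and edgeR and DESeq2 called 0 members as well. At an unadjusted p under 0.05, 1 member was higher (Fosb) and 1 lower (Ier5), near the shares of 2.37% and 1.66% among all genes. The median log2 fold change was 0.17 for rapid members, 21 of 25 of them above 0, and 0.017 for delayed members, against -0.0026 for all genes. Without replicate 2 of E2-treated WT the rapid median was -0.0091 with 12 of 25 above 0, and without replicate 1 of that group it was 0.37. Both E2-treated libraries lay above both vehicle-treated ones for 8 members and below them for 2, while 15.6% and 16.2% of all genes separated in these directions. With 2 libraries a group, an exact permutation test of a single gene cannot give a p below 0.333. Choroid plexus markers had a median log2 fold change of 1.87 in this comparison, and their part in the members' values was not tested.

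The same question was asked of E2 in Het-Met mice. Here 0 members passed the test, against 0% of all genes, and edgeR and DESeq2 gave 0 members. At an unadjusted p under 0.05, 3 members were higher (Ier5, Nr4a2 and Rgs2) and 2 lower (Gadd45b and Egr2), with 2.82% and 2.63% of all genes. The rapid median was -0.11, with 20 of 25 members below 0, and the delayed median was 0.0065. The rapid median was -0.0081 without replicate 3 of E2-treated Het-Met and 0.023 without replicate 3 of the vehicle-treated group. The libraries separated completely for 3 members upward (Ier5, Plk3 and Rgs2) and 2 downward (Gadd45b and Sik1), where 5.15% and 5.11% of all genes did. Choroid plexus markers had a median of -1.18 here, and their part was not tested.

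Under vehicle, Het-Met mice were compared with WT mice. Again 0 members passed the test against 0.00663% of all genes, with 0 in edgeR and DESeq2. At an unadjusted p under 0.05, 0 members were higher and 5 lower (Vgf, Ier5, Egr1, Homer1 and Trib1), where 5.85% of all genes were higher and 4.83% lower. The median was -0.066 for rapid and -0.12 for delayed members, against 0.020 for all genes. The rapid median was -0.18 without replicate 3 of vehicle-treated Het-Met, -0.0088 without replicate 1 and 0.017, above 0, without replicate 2 of that group. Separated libraries were found for 1 member higher in Het-Met (Btg2) and 7 lower (Bhlhe40, Egr1, Ier5, Klf6, Nr4a3, Trib1 and Vgf), against 14.8% and 9.89% of all genes. Choroid plexus markers were higher in Het-Met mice here, with a median of 1.46, and their part in the members' values was not tested.

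Under E2 most members had lower mean values in Het-Met than in WT mice. No member passed the limma test, against 0.0265% of all genes, and edgeR gave 0, but DESeq2 called Egr2 (adjusted p = 0.0256). At an unadjusted p under 0.05, 0 members were higher in Het-Met and 17 of 44 lower, where 6.29% of all genes were higher and 5.36% lower. Among them were Egr1, Egr2 and Egr4, the AP-1 genes Fos, Fosb, Fosl2, Junb and Maff, the receptor Nr4a3 and the regulator Ier2. The signalling inhibitors Dusp5, Dusp6, Sik1 and Trib1 and the effectors Arc, Homer1 and Vgf completed the set. The rapid median was -0.38, with 24 of 25 members below 0, and the delayed median -0.19. Every Het-Met library lay below both WT libraries for 15 members and above them for 3 (Dusp14, Ier5 and Plk2), with 14.7% and 21.1% of all genes. These values moved with the libraries at the extremes. Without replicate 3 of E2-treated Het-Met, 9 members had an unadjusted p under 0.05, all of them lower. In that fit 579 of 15071 genes were higher and 620 lower, against 949 and 809 of 15081 with all libraries. Over the fits that each lacked 1 library, the rapid median ranged from -0.54 to -0.16. Leaving out replicate 2 of E2-treated WT left 1 library in that group. Below 0 were then 19 of 25 rapid members, against 24 with all libraries, and 30 of all 44 members, against 36. With both libraries left out, 15 of 25 rapid members were below 0, and the rapid median was -0.056. Choroid plexus markers had a median of -1.45, the same sign as the members, and their part was not tested.

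**Figure D3:**
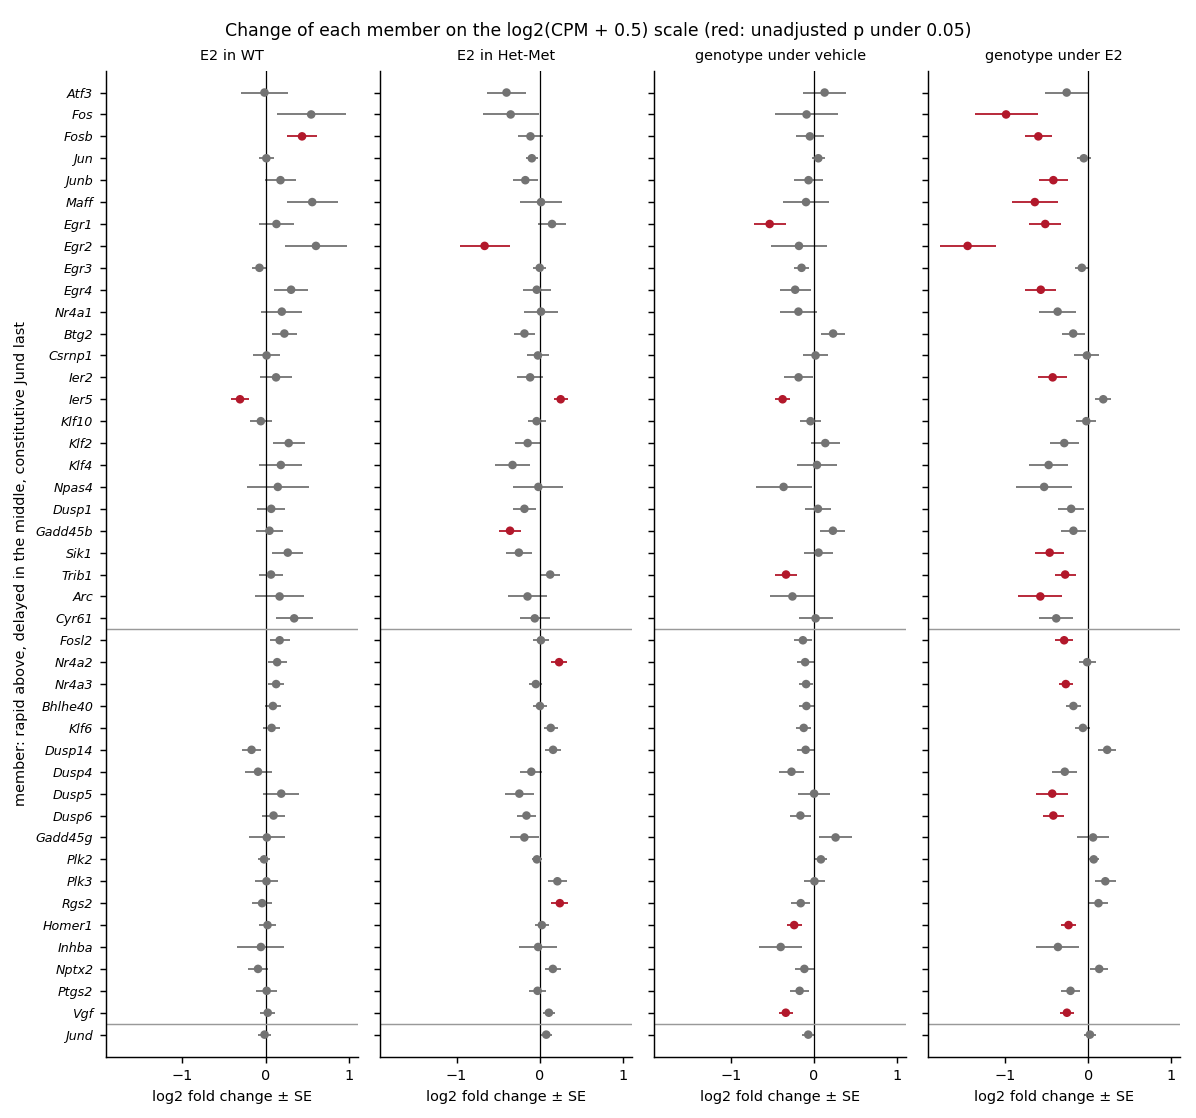
Log2 fold change of each member with its SE (bars) in 4 comparisons, on the log2(CPM + 0.5) scale, with members at an unadjusted p under 0.05 in red. Rapid members lie mostly right of 0 for E2 in WT and left of 0 for E2 in Het-Met, and 17 members are red and left of 0 for genotype under E2.

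The difference between the E2 effects of the 2 genotypes was tested as an interaction. It called 0 members in limma, edgeR and DESeq2, against 0.0729% of all genes. At an unadjusted p under 0.05, 2 members were higher (Ier5 and Dusp14) and 2 lower (Egr2 and Fosb), as were 2.8% and 2.62% of all genes. The rapid median was -0.34, with 20 of 25 below 0, and the delayed median -0.0037. Without both extreme libraries the rapid median was 0.015, with 13 of 25 above 0. The choroid plexus markers had a median of -2.97 for the interaction. Averaged over genotypes, E2 gave 0 calls (0.00663% of all genes) and 1 member at an unadjusted p under 0.05, Nr4a2, which was higher, with 1.73% of genes higher and 1.49% lower. Averaged over treatments, genotype gave 0 calls (0.0265% of all genes), 0 members higher and 15 lower in Het-Met, with 9.33% and 7.27% of genes, and choroid plexus markers had a median of -0.021 there.

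Among the AP-1 genes, Fos encodes the best known marker of recent neuronal activity. Fos was at 7.82 and 10.3 CPM in vehicle-treated WT, 9.96 and 17.8 CPM in E2-treated WT, 7.97, 5.30 and 13.9 CPM in vehicle-treated Het-Met and 11.0, 6.59 and 3.70 CPM in E2-treated Het-Met libraries. All 4 groups overlapped. Its log2 fold change was 0.54 (SE 0.41, adjusted p = 1) for E2 in WT and -0.35 (SE 0.34, adjusted p = 0.973) for E2 in Het-Met. Without replicate 2 of E2-treated WT the former was 0.14, and without replicate 3 of E2-treated Het-Met the latter was 0.017. Under E2, Het-Met differed from WT by -0.99 (SE 0.38, adjusted p = 0.368), and by -0.21 without both libraries.

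Fosb, whose splice forms include the stable delta-FosB that builds up with repeated activity, was steadier. It was at 9.25 and 8.72 CPM in vehicle-treated WT, 11.6 and 13.1 CPM in E2-treated WT, 7.07, 7.97 and 11.5 CPM in vehicle-treated Het-Met and 8.12, 7.51 and 8.30 CPM in E2-treated Het-Met libraries. Both E2-treated WT libraries lay above both vehicle-treated WT and all E2-treated Het-Met libraries. The log2 fold change was 0.44 (SE 0.18, adjusted p = 1) for E2 in WT and -0.11 (SE 0.15, adjusted p = 0.988) in Het-Met, and -0.60 (SE 0.17, adjusted p = 0.329) for genotype under E2. The last value was -0.54 for genotype under E2 without both extreme libraries. The splice forms are not told apart in values per gene.

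Junb, a Jun family partner of Fos, was at 48.6 and 50.1 CPM in vehicle-treated WT, 46.2 and 67.3 CPM in E2-treated WT, 44.9, 41.9 and 55.5 CPM in vehicle-treated Het-Met and 51.2, 42.8 and 33.0 CPM in E2-treated Het-Met libraries. Its highest and lowest libraries were the same as those of Fos. For genotype under E2 the log2 fold change was -0.42 (SE 0.17, adjusted p = 0.381), -0.15 without replicate 2 of E2-treated WT and 0.019 without both libraries, a change of sign. The other AP-1 members were Jun, Fosl2, Jund, Atf3 and Maff. Jun, at 128 to 148 CPM, and Jund, at 98.4 to 113 CPM, were the steadiest, with log2 fold changes for genotype under E2 of -0.052 and 0.022. All 8 had a negative value for genotype over both treatments, with a median of -0.23.

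The Egr zinc finger factors respond to MAP kinase signalling through SRF. Egr1 was at 134 and 126 CPM in vehicle-treated WT, 129 and 157 CPM in E2-treated WT, 74.6, 81.8 and 118 CPM in vehicle-treated Het-Met and 129.7, 99.7 and 75.5 CPM in E2-treated Het-Met libraries. Under vehicle every Het-Met library was below both WT libraries, with a log2 fold change of -0.53 (SE 0.19, adjusted p = 0.393). Under E2 the value was -0.51 (SE 0.19, adjusted p = 0.361), with 1 Het-Met library inside the WT range, and -0.32 without replicate 3 of E2-treated Het-Met. Over both treatments it was -0.52 (SE 0.14, adjusted p = 0.126), and -0.35 without both extreme libraries. The effect of E2 was 0.13 in WT and 0.15 in Het-Met.

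Egr2, an Egr factor at few transcripts here, was at 2.17 and 1.73 CPM in vehicle-treated WT, 2.42 and 4.21 CPM in E2-treated WT, 2.37, 1.11 and 1.67 CPM in vehicle-treated Het-Met and 1.57, 0.968 and 0.332 CPM in E2-treated Het-Met libraries. The E2-treated WT libraries were the highest of the 10 and E2-treated Het-Met replicate 3 the lowest, at 7 reads. The log2 fold change for genotype under E2 was -1.45 (SE 0.34, adjusted p = 0.314). Without replicate 1 of E2-treated Het-Met it was -1.75 and passed the test (adjusted p = 0.0382), and without both extreme libraries it was -0.75. Replicate 1 was the E2-treated Het-Met library nearest to WT, so the larger value without it follows by construction. In that fit 45 of 15081 genes passed, against 4 with all libraries. The interaction was -1.27 (SE 0.47, adjusted p = 0.711), the E2 effect being 0.60 in WT and -0.66 in Het-Met. The latter was -0.31 without replicate 3 of E2-treated Het-Met and ranged from -0.96 to -0.31 over the fits that lacked 1 library.

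Egr3, a close relative of Egr1, was one of the steadiest members. It was at 118 and 127 CPM in vehicle-treated WT, 111 and 121 CPM in E2-treated WT, 98.9, 109 and 124 CPM in vehicle-treated Het-Met and 110.0, 109 and 111 CPM in E2-treated Het-Met libraries. The E2 effect was -0.076 (SE 0.095, adjusted p = 1) in WT and -0.0022 (SE 0.077, adjusted p = 0.999) in Het-Met, and the groups overlapped. Egr4 was at 14.2 and 14.5 CPM in vehicle-treated WT, 15.8 and 20.03 CPM in E2-treated WT, 11.0, 11.0 and 14.8 CPM in vehicle-treated Het-Met and 14.3, 13.1 and 8.77 CPM in E2-treated Het-Met libraries. Both E2-treated WT libraries exceeded the other 8, among which the Het-Met ones overlapped with vehicle-treated WT. Its E2 effect was 0.30 (SE 0.20, adjusted p = 1) in WT and -0.038 (SE 0.17, adjusted p = 0.993) in Het-Met, and genotype under E2 gave -0.57 (SE 0.18, adjusted p = 0.342). The E2 effect in WT was 0.14 without replicate 2 and 0.47 without replicate 1 of E2-treated WT. The 4 Egr members had a median of -0.46 for genotype over both treatments, all 4 below 0.

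**Figure D4:**
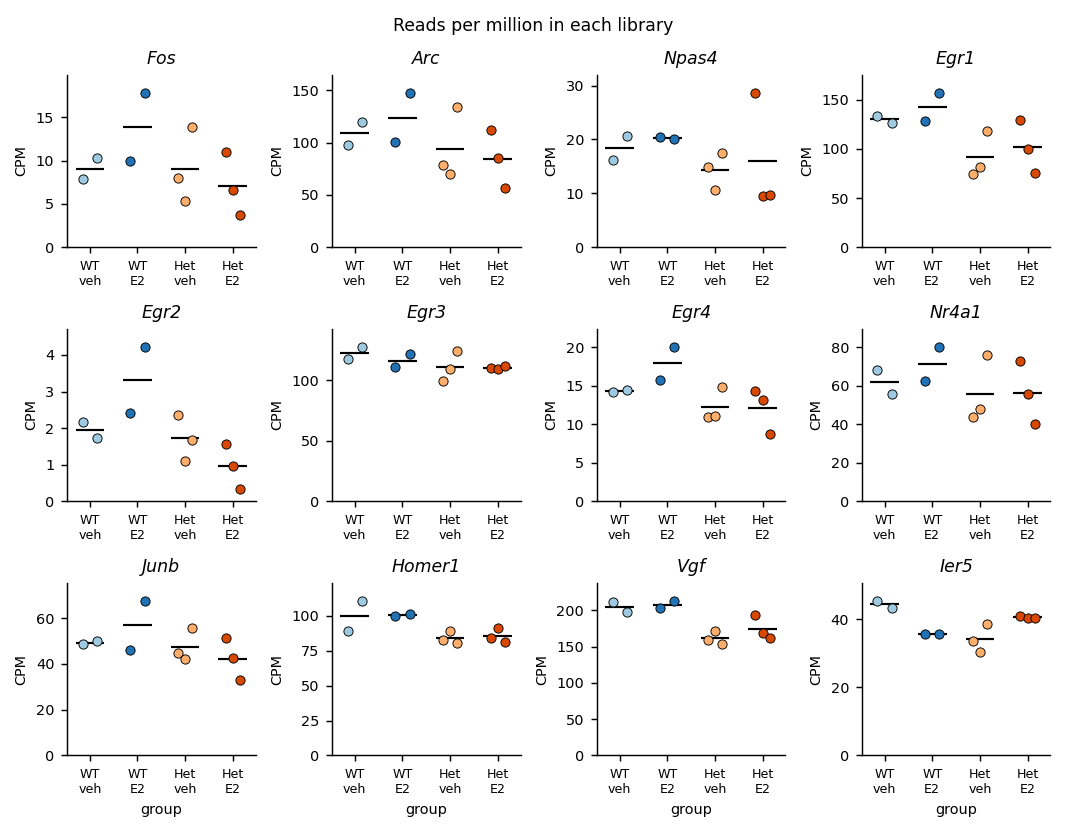
CPM of 12 members in each library (points) with group means (bars) for WT and Het-Met mice under vehicle (veh) or E2, each axis starting at 0. Fos, Arc, Egr2 and Junb spread widely within groups, Vgf is lower in each Het-Met library than in each WT library, and Ier5 is lower with E2 in WT and higher with E2 in Het-Met.

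The Nr4a genes encode orphan nuclear receptors induced by cAMP and calcium. Nr4a1 was at 68.4 and 56.0 CPM in vehicle-treated WT, 62.5 and 80.2 CPM in E2-treated WT, 43.6, 48.1 and 76.2 CPM in vehicle-treated Het-Met and 72.9, 56.0 and 40.3 CPM in E2-treated Het-Met libraries. All 4 groups overlapped, and its log2 fold change was 0.19 for E2 in WT, 0.013 for E2 in Het-Met and -0.37 for genotype under E2. Nr4a2 was at 74.3 and 71.3 CPM in vehicle-treated WT, 73.1 and 87.6 CPM in E2-treated WT, 65.1, 77.1 and 61.4 CPM in vehicle-treated Het-Met and 85.3, 73.1 and 80.1 CPM in E2-treated Het-Met libraries. It was the 1 member at an unadjusted p under 0.05 for E2 over both genotypes, at 0.18 (SE 0.073, adjusted p = 0.999), and was 0.23 (SE 0.092, adjusted p = 0.867) in Het-Met mice, where the groups overlapped. Without replicate 2 of E2-treated WT the pooled value was 0.12. Nr4a3 ran from 87.5 to 124 CPM and was -0.27 (SE 0.086, adjusted p = 0.341) for genotype under E2.

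Of the other nuclear regulators, Ier5, an early gene that regulates heat shock factor activity, had the clearest crossing pattern. Ier5 was at 45.3 and 43.5 CPM in vehicle-treated WT, 35.6 and 35.8 CPM in E2-treated WT, 33.5, 30.4 and 38.7 CPM in vehicle-treated Het-Met and 41.0, 40.4 and 40.3 CPM in E2-treated Het-Met libraries. Both E2-treated WT libraries lay below both vehicle-treated ones, while all 3 E2-treated Het-Met libraries lay above the vehicle-treated ones. The log2 fold change was -0.31 (SE 0.10, adjusted p = 0.856) for E2 in WT and 0.25 (SE 0.084, adjusted p = 0.753) for E2 in Het-Met, with an interaction of 0.56 (SE 0.13, adjusted p = 0.151). Under vehicle, Het-Met differed from WT by -0.38 (SE 0.094, adjusted p = 0.262). The interaction ranged from 0.48 to 0.65 over the fits that left out 1 library and was 0.57 without both extreme libraries. The sign of Ier5 was opposite to that of the rapid median for E2 in WT, for E2 in Het-Met and for the interaction. Choroid plexus markers crossed too, with signs opposite to those of Ier5. Their medians were 1.87 for E2 in WT, -1.18 for E2 in Het-Met and -2.97 for the interaction. Their part in the values of Ier5 was not tested.

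Npas4, a factor induced by calcium entry in neurons and by little else, was at 16.1 and 20.7 CPM in vehicle-treated WT, 20.4 and 20.1 CPM in E2-treated WT, 14.8, 10.6 and 17.6 CPM in vehicle-treated Het-Met and 28.6, 9.54 and 9.67 CPM in E2-treated Het-Met libraries. A single library, replicate 1 of E2-treated Het-Met, stood at 28.6 CPM, and the other E2-treated Het-Met libraries at 9.54 and 9.67 CPM were the lowest of all. The log2 fold change for genotype under E2 was -0.53 (SE 0.34, adjusted p = 0.55). It was -1.04 without the library at 28.6 CPM and then passed the test (adjusted p = 0.037). That library was left out against the direction of the change, so the larger value follows by construction. In that fit 45 of 15081 genes passed, against 4 with all libraries. The 8 further nuclear regulators were Bhlhe40, Btg2, Csrnp1, Ier2, Klf2, Klf4, Klf6 and Klf10. Their log2 fold changes for E2 in WT lay between -0.060 (Klf10) and 0.28 (Klf2), and for genotype under E2 between -0.47 (Klf4) and -0.015 (Csrnp1).

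The 12 signalling inhibitors and feedback genes include the dual specificity phosphatases, which remove phosphate from MAP kinases. Dusp6, which acts on ERK in the cytoplasm, was at 44.0 and 50.5 CPM in vehicle-treated WT, 43.3 and 58.6 CPM in E2-treated WT, 42.8, 38.8 and 44.8 CPM in vehicle-treated Het-Met and 41.3, 39.0 and 32.9 CPM in E2-treated Het-Met libraries. Under E2 all Het-Met libraries were below both WT libraries, with a log2 fold change of -0.42 (SE 0.13, adjusted p = 0.334), and -0.20 without replicate 2 of E2-treated WT. Gadd45b, a stress and activity gene linked to DNA demethylation, was at 7.63 and 6.89 CPM in vehicle-treated WT, 6.60 and 8.51 CPM in E2-treated WT, 9.01, 7.42 and 9.41 CPM in vehicle-treated Het-Met and 6.51, 7.19 and 6.07 CPM in E2-treated Het-Met libraries. In Het-Met mice all E2-treated libraries were below the vehicle-treated ones, at -0.36 (SE 0.13, adjusted p = 0.828). The 12 had medians of 0.029 for E2 in WT, -0.13 for E2 in Het-Met and -0.19 for genotype under E2. Plk2, a kinase that acts on synapses, varied least, from 178 to 208 CPM.

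Synaptic and secreted effectors held the member with the smallest adjusted p of all 44. Vgf, a BDNF-responsive neuropeptide precursor, was at 212 and 197 CPM in vehicle-treated WT, 203 and 213 CPM in E2-treated WT, 159, 172 and 154 CPM in vehicle-treated Het-Met and 193, 169 and 162 CPM in E2-treated Het-Met libraries. All 6 Het-Met libraries were below all 4 WT libraries. The log2 fold change was -0.30 (SE 0.057, adjusted p = 0.0989) over both treatments, -0.34 (SE 0.081, adjusted p = 0.252) under vehicle and -0.25 (SE 0.081, adjusted p = 0.341) under E2. It ranged from -0.33 to -0.27 over both treatments when 1 library was left out, and was -0.25 without both extreme libraries. E2 gave 0.024 in WT and 0.11 in Het-Met mice.

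Homer1, a scaffold of postsynaptic glutamate receptors, was at 89.3 and 110.4 CPM in vehicle-treated WT, 99.9 and 102 CPM in E2-treated WT, 82.9, 89.3 and 80.4 CPM in vehicle-treated Het-Met and 84.2, 91.5 and 81.1 CPM in E2-treated Het-Met libraries. The short activity-induced form Homer1a and the constant long forms share 1 value per gene. The log2 fold change for genotype over both treatments was -0.24 (SE 0.063, adjusted p = 0.126), with 0.021 and 0.023 for E2 in WT and Het-Met. Under vehicle the genotype value of -0.24 was -0.086 without replicate 3 of vehicle-treated WT. Arc, which drives removal of AMPA receptors from synapses, was at 98.2 and 119 CPM in vehicle-treated WT, 100.2 and 148 CPM in E2-treated WT, 78.4, 70.1 and 134 CPM in vehicle-treated Het-Met and 112, 85.0 and 56.6 CPM in E2-treated Het-Met libraries. Its highest and lowest libraries were those of Fos, and all groups overlapped. Arc had 0.17 (SE 0.29, adjusted p = 1) for E2 in WT and -0.15 (SE 0.24, adjusted p = 0.988) in Het-Met, and -0.57 (SE 0.26, adjusted p = 0.425) for genotype under E2. The last value was -0.035 without both extreme libraries. Cyr61, Inhba, Nptx2 and Ptgs2 had log2 fold changes for genotype over both treatments of -0.18, -0.38, 0.0084 and -0.19.

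How far values depended on single libraries was described by leaving libraries out. Replicate 2 of E2-treated WT and replicate 3 of E2-treated Het-Met were picked as the extremes of these same members. Leaving them out therefore shrinks the genotype difference under E2 by construction. It also leaves 1 library in E2-treated WT, where an effect of the group and of the library cannot be told apart. For genotype over both treatments, 15 members had an unadjusted p under 0.05, and without replicate 2 of E2-treated WT 5 of these 15 still did in the same direction. With both extreme libraries left out, 5 of the 15 also did, and for genotype under E2 it was 2 of 17. Those libraries do not enter the fold changes for genotype under vehicle, but they enter its p-values through the shared estimate of the spread. For that comparison, 4 of 5 members kept an unadjusted p under 0.05 when any 1 replicate of vehicle-treated Het-Met was left out. Leaving out a vehicle-treated WT library leaves 1 in that group. Over all fits that lacked 1 library, its log2 fold changes ran from -0.39 to -0.29 for Vgf and -0.47 to -0.30 for Ier5. They ran from -0.73 to -0.40 for Egr1 and from -0.39 to -0.086 for Homer1. The delayed median for genotype over both treatments was -0.16 with all libraries, -0.10 without both, and the rapid median -0.22 and -0.078. That rapid median was -0.11 without replicate 2 of E2-treated WT alone.

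**Figure D5:**
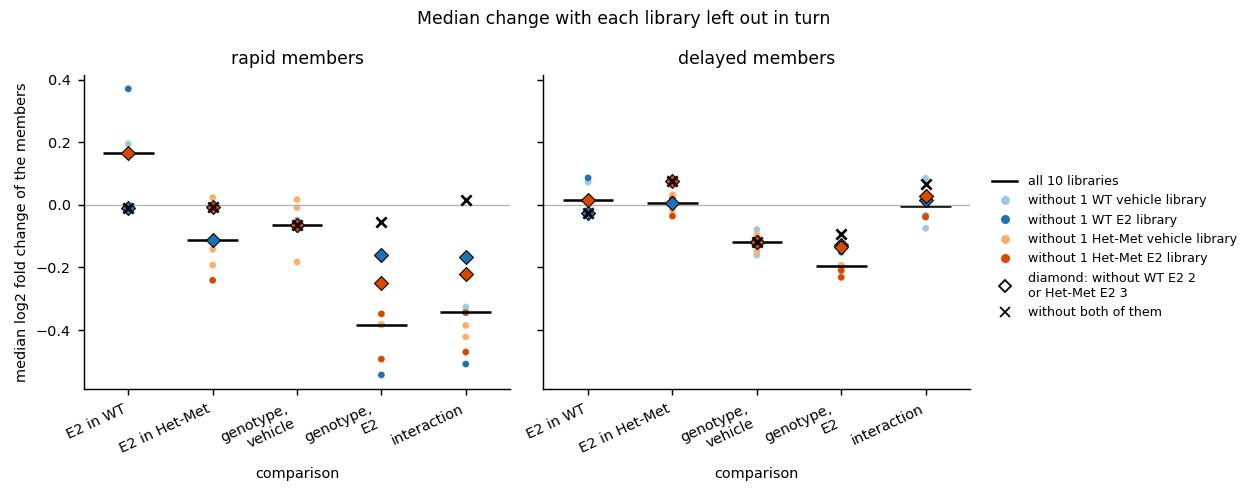
Median log2 fold change of the 25 rapid (left) and 18 delayed members (right) in 5 comparisons, with all libraries (bars), with each library left out (points coloured by its group, diamonds for replicate 2 of E2-treated WT and replicate 3 of E2-treated Het-Met) and without both of those (crosses). The rapid median for E2 in WT is 0.17 with all libraries and -0.0091 without replicate 2 of E2-treated WT.

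Other activity-regulated genes that are no members were read from a separate list, of which 21 of 22 were tested (Fosl1 had too few reads). At an unadjusted p under 0.05 for genotype over both treatments, 0 of 21 were higher in Het-Met and 6 lower, where 9.33% and 7.27% of all genes were, with 0 passing the test and a median of -0.033. Spry4, an inhibitor of receptor tyrosine kinase signalling, had -0.38 (SE 0.079, adjusted p = 0.105), Pcsk1, a prohormone convertase, -0.36 (SE 0.11, adjusted p = 0.146), and Bdnf -0.24 (SE 0.078, adjusted p = 0.167). Of 22 upstream genes, which encode kinases, channels and factors such as CREB and SRF, 1 was higher and 4 lower at that threshold, beside the same 9.33% and 7.27% of all genes, and 0 passed the test. Mapk3, which encodes ERK1, had 0.21 (SE 0.053, adjusted p = 0.126), and Cacna1c, the L-type calcium channel, -0.16 (SE 0.051, adjusted p = 0.156). Mef2c, a factor that drives Arc and other members, had values of opposite sign for E2 in WT and in Het-Met, as Ier5 did, with an interaction of 0.64 (SE 0.15, adjusted p = 0.148). For E2 in WT, 1 of the other activity-regulated genes was higher and 0 lower, as were 0 and 1 of the upstream genes, with 2.37% of all genes higher and 1.66% lower.

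Glucocorticoid-responsive genes are induced by stress hormone. Of 10 tested, 0 passed the test in any comparison, and at an unadjusted p under 0.05 at most 2 did in one direction. These were 2 lower for genotype under E2, with 5.36% of all genes, and 2 lower over both treatments, with 7.27%. Sgk1 and Per1 are in this list and in that of the other activity-regulated genes. Their mean level was lowest in replicate 3 of E2-treated Het-Met, at -0.22, and lay between -0.028 and 0.067 in the other 9 libraries. Dentate gyrus markers were highest in replicate 3 of vehicle-treated Het-Met, at 0.30, as were markers of CA1 and CA3, at 0.26, the library above its group mean for all 25 rapid members. Both lists were lowest in replicate 3 of E2-treated Het-Met, at -0.20 and -0.15. Not every marker was low there, with 2 of 6 and 1 of 6 above their average. Endothelial markers were lowest there too, at -0.15, with -0.11 in replicate 2 of E2-treated WT. Mean levels of astrocyte, microglia, oligodendrocyte and meningeal markers lay within -0.10 to 0.16, -0.11 to 0.16, -0.12 to 0.19 and -0.20 to 0.17. Single markers could differ more than such means. For the interaction, 1 of 6 CA1 and CA3 markers passed the limma test (smallest adjusted p = 0.0333). So did 1 of 5 meningeal markers (smallest adjusted p = 0.0454), against 0.0729% of all genes, and both values were below 0. The choroid plexus level was 1.17 in replicate 1 and 0.74 in replicate 2 of E2-treated WT, where the rapid level was 0.037 and 0.38. The part of these marker levels in the members' values was not tested.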

How the data were processed

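RNA from vHpc pools of 2 mice was sequenced by the authors as stranded TruSeq libraries (75-bp single-end reads) and, per the labels and methods, aligned to mm10 with TopHat2. The deposited table, made by the authors, gives CPM per gene, with each column scaled to the library's counted reads. Strand setting of the counting is not given in the sources used here. Whole reads were recovered from the CPM steps (100% of values within 0.01 of a whole number). Paper and labels differ in the number of WT libraries, and groups follow the labels.

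The 44 members and all lists were chosen with earlier results of these data known. Genes whose mean reached 0.5 CPM were tested on log2(CPM + 0.5) with limma 3.58.1 (R 4.3.3), by 4 group means over all 10 libraries, two-sided, with Benjamini-Hochberg adjustment over 15081 genes. A call needed an adjusted p under 0.05 and a fold above 1.3. Recovered reads were also tested with edgeR 4.0.16 and DESeq2 1.42.0, which called 0 to 14 and 5 to 88 of all genes per comparison, with 0 and 1 members among them. Adjusted p-values in the text are from limma unless another tool is named. Members described library by library were 10 well known ones and, per comparison, up to 3 with the smallest unadjusted p under 0.05. Scripts were tested on simulated data. Other pseudocounts, filters, scalings, a replicate block and leaving out libraries were tried.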

Additional observations from a re-analysis of the deposited data

Results flagged for a closer look

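Ier5 went in opposite directions with E2 in the 2 genotypes. Both E2-treated WT libraries were below both vehicle-treated WT libraries, and all 3 E2-treated Het-Met libraries were above all 3 vehicle-treated ones. The interaction was 0.56 (SE 0.13, adjusted p = 0.151) on the log2 scale in limma, so the difference between genotypes was tested and missed the threshold. Choroid plexus markers had an interaction median of -2.97, and their part in the values of Ier5 was not tested. Groups of 2 or 3 libraries were too small to search for single outlying samples.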

How the results depend on the processing

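Calls were 0 under each setting tried, except for genotype under E2, where DESeq2 called 1 member (Egr2) and leaving out single libraries gave 0 to 2 (Egr2 and Npas4 without replicate 1 of E2-treated Het-Met). Members at an unadjusted p under 0.05 numbered 1 to 7 for E2 in WT, 2 to 8 for E2 in Het-Met, 3 to 8 for genotype under vehicle, 2 to 22 for genotype under E2, 1 to 11 for the interaction, 0 to 2 for E2 over both genotypes and 6 to 22 for genotype over both treatments over the 10 fits that each lacked 1 library. For E2 in WT the count was 7 without E2-treated WT replicate 1 and 1 without E2-treated WT replicate 2 or vehicle-treated WT replicate 1. For E2 in Het-Met it was 8 without E2-treated Het-Met replicate 1, 3 without vehicle-treated Het-Met replicate 1 and 2 without E2-treated Het-Met replicate 3. For genotype under vehicle it was 8 without vehicle-treated Het-Met replicate 3 and 3 without vehicle-treated WT replicate 3. For the interaction it was 11 without replicate 1 of either E2-treated group, 2 without E2-treated Het-Met replicate 2 and 1 without E2-treated WT replicate 2. Without both replicate 2 of E2-treated WT and replicate 3 of E2-treated Het-Met, a setting chosen after seeing the data, they numbered 1, 2, 5, 3, 1, 0 and 6 in that order. The median over members was then -0.068 for genotype under E2 and 0.045 for the interaction, against ranges of -0.35 to -0.15 and -0.24 to -0.016 with 1 library left out. Signs turned in that setting for Junb under E2 by genotype (0.019), for Arc with E2 in WT (-0.11), and with E2 in Het-Met for Fos (0.017), Arc (0.11) and Egr4 (0.17). With 1 library left out, Arc ran from -0.11 to 0.44 for E2 in WT, and for E2 in Het-Met Fos ran from -0.71 to 0.017, Arc from -0.38 to 0.14, Egr3 from -0.080 to 0.084 and Egr4 from -0.17 to 0.17. Without a filter on low values the interaction had 2 members. Leaving out a WT library left 1 library in its group, and the part of that in these counts was not tested. Counts over all genes moved too. At an unadjusted p under 0.05 for genotype under E2, 949 genes were higher and 809 lower with all libraries. The numbers were 579 and 620 without E2-treated Het-Met replicate 3. In the same comparison 45 genes were called without E2-treated Het-Met replicate 1, against 4 with all libraries. The cause of these changes was not tested.

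Deviations of same-numbered libraries were only weakly correlated (-0.17 to 0.083). In groups of so few libraries the deviations of a group depend on each other. These correlations therefore cannot decide whether the numbers pair the libraries. With the replicate number as a block, 1 member had an unadjusted p under 0.05 for E2 in WT, 0 for E2 over both genotypes and 13 for genotype under E2.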
